A study of Mus musculus with 4 samples.

Results

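CatSper is the calcium channel of the sperm tail, and the genes described here are 8 of its subunit genes together with Slc9c1 and Kcnu1, which encode a sodium-proton exchanger and a potassium channel of sperm. The 10 genes were taken by symbol in the GENCODE M21 annotation of GRCm38 from the 55364 genes of the deposited tables, and all 10 passed the expression filter. Their transcripts were measured by RNA sequencing of pachytene spermatocytes, male germ cells in meiosis whose paired autosomes are fully synapsed. The cells were enriched from mouse testis by centrifugal elutriation after a digestion step against Leydig cells. The 2 KK libraries are labelled as a homozygous DDX4 knock-in, at the gene of a germ granule RNA helicase, and the 2 WT libraries as wild type. The labels give no age, strain or further detail of the allele. Nor do they say whether both libraries of a genotype are from different mice, so p-values reflect only how far these samples spread, possibly for technical reasons.

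The pore of CatSper is built from the products of Catsper1, Catsper2, Catsper3 and Catsper4, each of which contributes a subunit to 1 channel. Around it sit auxiliary subunits with large extracellular parts, among them those encoded by Catsperb, Catsperd, Catsperg1 and Catsperg2. The channel opens as the sperm cytosol becomes alkaline and drives hyperactivated swimming, and male mice without it are infertile. SLC9C1 is a sperm-specific exchanger that raises internal pH, and KCNU1, also called SLO3, is the alkaline-activated potassium channel that sets the membrane potential of mouse sperm. The proteins act in mature sperm, whereas the transcripts were measured here in a fraction enriched for meiotic cells that also held spermatid transcripts.

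Total expected counts were 19438570 and 17970207 in the KK libraries and 18156099 and 19246124 in the WT libraries. Ddx4 itself had 54.4 and 52.5 TPM (transcript abundance scaled for length and depth) in KK, against 265 and 273 TPM in WT, 5.05-fold lower (edgeR adjusted p of 6.8e-27). Of 16571 genes tested with edgeR's quasi-likelihood test, 43.7% passed an adjusted p of 0.05, 22.0% higher and 21.7% lower in KK. Higher genes were 50.4% of the calls with TMM scaling and 64.2% with library size scaling. The 12 pachytene markers, Sycp3 and Piwil1 among them, were all detected, with a summed level of 11784 to 11959.9 CPM (counts scaled for depth) in KK and 13024 to 13039 CPM in WT. Ldhc, which did not pass the test, held the largest share of those sums, at 5730 CPM in KK and 5772 CPM in WT on average. The 14 spermatid genes listed were detected too. Among them Tnp2 averaged 6514 TPM in KK and 6449 TPM in WT, against 227 and 295 TPM for Sycp3. Pachytene cells and cells of other stages were measured in bulk. Fewer cells of a type and less RNA per cell therefore cannot be told apart.

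The pore genes split by genotype. Catsper1, Catsper3 and Catsper4 rose in KK, by 1.68-fold to 1.89-fold, and so did Kcnu1, by 1.88-fold, while Catsper2, the pore gene with the highest level, fell by 6.88%. Catsperg1 fell by 26.3%, Catsperg2 and Slc9c1 rose by 7.10% and 8.90%, and Catsperb and Catsperd did not pass the test. Of the 10 genes 6 were higher and 2 lower, against 22.0% and 21.7% of all genes tested. At a size of at least 1.5-fold 4 of the 10 were higher, against 14.5% of all genes tested, and 0 were lower, against 3.57%. The median log2 fold change was 0.11 over the 10 genes and 0.0033 over all genes tested. In all 10 genes the CPM of the 2 KK libraries lay wholly above or wholly below that of the 2 WT libraries, which also held for 70.8% of all genes tested.

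The count of called genes depended on the setting. Of the 10 genes 8 were called with RLE factors (43.8% of all genes tested) and with a replicate block (44.1%), and also with a minimum mean of 1 CPM (48.0%). With library size scaling and without a filter 7 were called, against 42.5% and 27.2% of all genes tested, and with DESeq2 6, against 29.6%. With limma on log2(TPM + 1) or log2(TPM + 0.1) and with an offset for effective length 5 were called, against 23.1%, 22.7% and 28.1%. Without KK replicate 1 the count was 8 (36.8% of all genes tested), and it was 6 without KK replicate 2 (37.9%), WT replicate 1 (33.7%) or WT replicate 2 (34.4%). Catsper1, Catsper3, Catsper4, Kcnu1 and Catsperg1 were called in each of these fits.

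**Figure D1:**
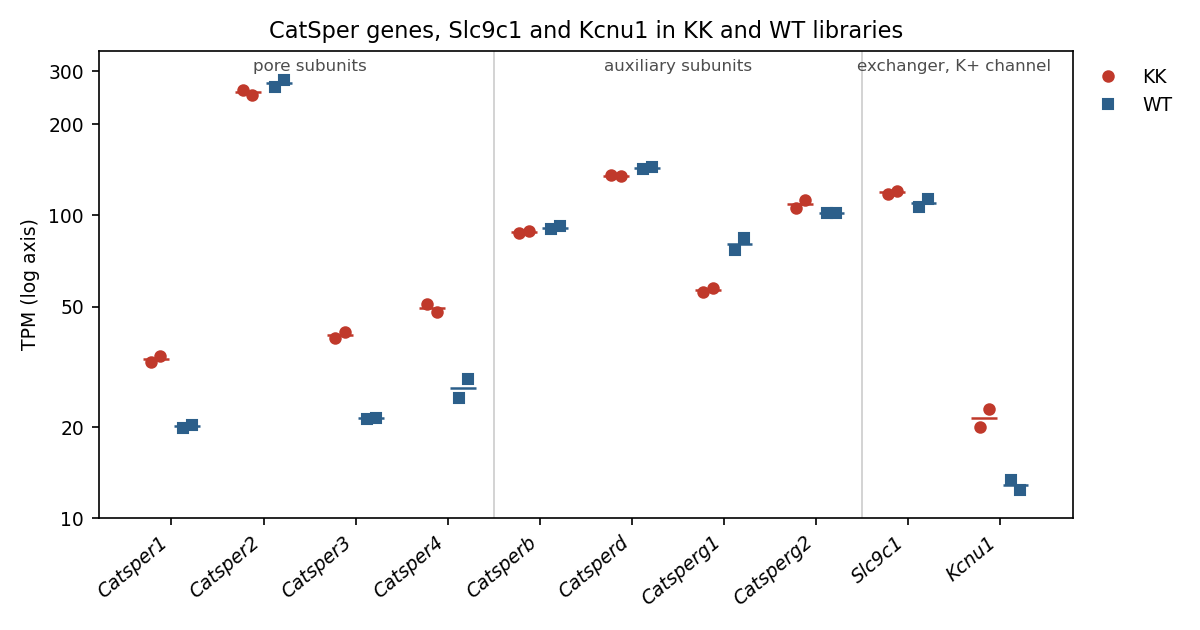
TPM (log axis) of the 8 CatSper genes, Slc9c1 and Kcnu1 in each KK (circles) and WT (squares) library, with a bar at each genotype's mean of 2 libraries. Catsper1, Catsper3, Catsper4 and Kcnu1, the 4 lowest in both genotypes, stand clearly higher in KK, and Catsperg1 stands lower.

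Catsper1 (chromosome 19, 5335741 to 5344280, plus strand, GRCm38), whose product carries a histidine-rich N-terminal tail, had 32.9 and 34.3 TPM in KK, against 19.8 and 20.4 TPM in WT. Both KK libraries lay above both WT libraries, and replicates differed by far less than the genotypes. The log2 fold change was 0.75 ± 0.08 (SE), with an edgeR adjusted p of 2.1e-08. It rested on 945 and 918 expected counts in KK and 496 and 551 in WT.

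Catsper3 (chromosome 13, 55784568 to 55808998, plus strand) encodes another pore subunit and had 39.3 and 41.1 TPM in KK and 21.2 and 21.5 TPM in WT. The log2 fold change was 0.91 ± 0.10 (SE, edgeR adjusted p of 7.9e-09), on 628 and 598 expected counts in KK and 296 and 318 in WT. Both KK libraries again lay above both WT libraries. Catsper4 (chromosome 4, 134211970 to 134227383, minus strand) had 51.0 and 48.0 TPM in KK, against 25.0 and 28.9 TPM in WT. The WT libraries were further apart here than for Catsper1 or Catsper3, yet both stayed well below the KK libraries. The log2 fold change of Catsper4 was 0.86 ± 0.09 (SE, edgeR adjusted p of 2.1e-09).

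Catsper2 (chromosome 2, 121392631 to 121413792, minus strand) had 260 and 250.03 TPM in KK and 265 and 281 TPM in WT. It was the gene with the highest level of the 10 in every library, and its genotypes were close. Its log2 fold change was -0.10 ± 0.04 (SE, edgeR adjusted p of 0.028), with a 95% interval of -0.18 to -0.03, and the call was lost in 6 of 14 alternative settings. Catsper2 shares 18 exon bases with Pdia3 on the other strand, 0.487% of its exon length, and the kit did not mark strand. Pdia3, a protein disulfide isomerase gene, had 8379 and 7428 expected counts in KK and 7408 and 8008 in WT and did not pass the test (edgeR adjusted p of 0.29).

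The make-up of the pore transcripts differed between the genotypes. Catsper1, Catsper3 and Catsper4 together had 123.2 and 123.4 TPM in KK, against 66.0 and 70.8 TPM in WT. Catsper2 made up 67.8% and 67.0% of the summed pore TPM in KK and 80.1% and 79.9% in WT. Per length, Catsper2 transcripts outnumbered those of Catsper1 by 7.89 and 7.29 times in KK, against 13.4 and 13.8 times in WT. The ratio of Catsper2 to Catsper3 was 6.60 and 6.08 in KK and 12.5 and 13.1 in WT, and that of Catsper2 to Catsper4 was 5.09 and 5.21 in KK and 10.6 and 9.72 in WT. In every library Catsper2 thus remained in excess of each of the other pore transcripts. These ratios use the same values as the fold changes and are given as a description.

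**Figure D2:**
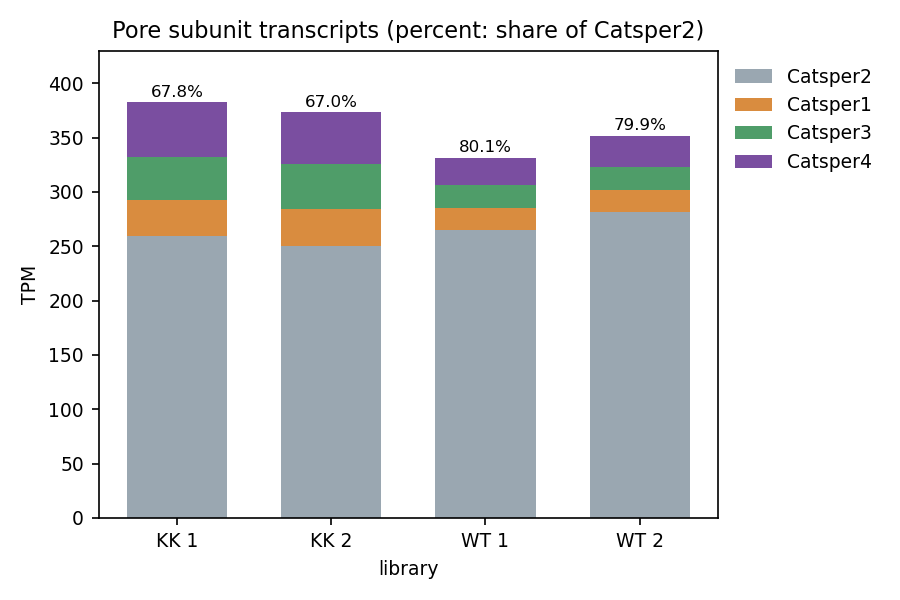
Stacked TPM of the 4 pore subunit genes in each library, with the percent held by Catsper2 above each bar. The KK bars carry 67.8% and 67.0% Catsper2, the WT bars 80.1% and 79.9%, and the stretches of Catsper1, Catsper3 and Catsper4 are taller in KK.

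The start regions of 3 pore genes are shown because the genes changed unequally. The windows run from 250 bases before to 50 bases after the start of a RefSeq transcript on GRCm38.p6, 5′ to 3′ on the gene's strand, with CpG dinucleotides in capitals. They are chr13:55784329-55784628 on the plus strand for Catsper3, chr4:134227334-134227633 on the minus strand for Catsper4 and chr2:121413743-121414042 on the minus strand for Catsper2.
Catsper3: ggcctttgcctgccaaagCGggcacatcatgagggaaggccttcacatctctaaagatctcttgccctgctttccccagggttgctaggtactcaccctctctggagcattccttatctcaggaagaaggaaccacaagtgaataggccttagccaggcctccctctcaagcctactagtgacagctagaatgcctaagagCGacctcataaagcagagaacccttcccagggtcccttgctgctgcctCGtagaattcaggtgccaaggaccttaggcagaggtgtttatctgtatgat
Catsper4: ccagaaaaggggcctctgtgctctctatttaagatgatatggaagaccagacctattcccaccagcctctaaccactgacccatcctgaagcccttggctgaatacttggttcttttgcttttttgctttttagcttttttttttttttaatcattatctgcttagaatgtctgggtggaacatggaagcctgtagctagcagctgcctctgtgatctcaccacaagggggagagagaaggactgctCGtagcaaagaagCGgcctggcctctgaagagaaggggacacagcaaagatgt
Catsper2: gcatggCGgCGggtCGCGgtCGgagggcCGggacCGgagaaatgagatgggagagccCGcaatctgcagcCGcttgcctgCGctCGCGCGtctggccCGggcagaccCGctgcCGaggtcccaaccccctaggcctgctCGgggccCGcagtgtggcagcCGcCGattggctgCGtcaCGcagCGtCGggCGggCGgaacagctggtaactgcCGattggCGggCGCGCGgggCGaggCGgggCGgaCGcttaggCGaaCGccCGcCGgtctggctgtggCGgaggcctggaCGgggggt
The Catsper2 window held 41 CpG and 74.7% G and C, while that of Catsper3 held 3 CpG (52.3% G and C) and that of Catsper4 held 2 (46.7%). The median over 32851 such windows of RefSeq genes was 7 CpG, with quartiles of 3 and 20. Catsper2 therefore stood above the upper quartile and the other pair at or under the lower one. The annotated start of Pdia3, on the other strand, lies inside the Catsper2 window.

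Of the 10 genes 7 had a window in the RefSeq table, some of them 2. Catsper1 and Kcnu1, which rose by at least 1.5-fold, and Catsperg2 had none and were not examined. The window of Slc9c1, which rose by 8.90%, held 3 CpG, and that of Catsperb, which did not pass the test, held 1. AACNG, the core bound by MYB proteins, was searched on both strands. It was absent from the Catsper3 and Catsper4 windows and present 2 times in that of Catsper2, 5 times in that of Catsperb and 4 times in that of Slc9c1. Catsperd held it 2 and 3 times in its 2 windows, and Catsperg1 held it 2 times in each. Among other genes higher in KK, Efcab9 held it 2 times, Lrrc52 4 times and Tmem262 6 times. It occurs in 80.3% of all windows. TGACG, the half-site of the cAMP response element, was found 3 times in the first Catsperd window and 1 time in the Catsper2 window. It was in none of the other 7, against 20.8% of all windows. The first Catsperd window held 29 CpG and ends at 56627096, before the annotated start of the gene at 56628143. The second Catsperd window spans that start and held 12 CpG and no TGACG. Catsperd did not pass the test. GTTGCC, an RFX half-site, was found in none of the 9 windows of these genes, against 12.5% of all windows. Among the other genes higher in KK, the Efcab9 window held it 1 time, and those of Lrrc52 and Tmem262 did not hold it. The motifs do not contain one another, and a match or its absence describes only these letters.

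Kcnu1 (chromosome 8, 25849623 to 25937939, plus strand) had the lowest level of the 10 in both genotypes, with 19.9 and 23.0 TPM in KK and 13.3 and 12.4 TPM in WT. The genotypes did not overlap, and the log2 fold change was 0.91 ± 0.09 (SE, edgeR adjusted p of 1.8e-09). Most of the difference lay in Kcnu1-201, the longest annotated coding isoform. It had 16.7 and 18.3 TPM in KK, against 9.43 and 8.02 TPM in WT, and made up 83.6% and 79.6% of the gene's transcripts in KK and 70.8% and 64.8% in WT. The shorter Kcnu1-202 overlapped between genotypes, at 2.62 and 4.14 TPM in KK and 2.24 and 4.36 TPM in WT. With an offset for effective length, which follows this isoform make-up, the log2 fold change of Kcnu1 was 0.72 (edgeR adjusted p of 0.0029), and the ratio of its mean TPM was 1.67, below the 1.88-fold of its counts.

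Lrrc52, which encodes the auxiliary subunit of the KCNU1 channel, moved with it. It had 23.7 and 23.2 TPM in KK, against 9.24 and 9.67 TPM in WT, a 2.48-fold rise (log2 fold change 1.31 ± 0.13 SE, edgeR adjusted p of 2.9e-09). Kcnu1 stood at 0.841 and 0.993 times the Lrrc52 TPM in KK and at 1.44 and 1.28 times in WT. Kcnu1 was thus above Lrrc52 in both WT libraries, below it in KK replicate 1 and nearly level with it in KK replicate 2.

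Slc9c1 (chromosome 16, 45535309 to 45607001, plus strand) was abundant, at 118 and 121 TPM in KK and 107 and 113 TPM in WT. The difference was small beside that of Kcnu1, with a log2 fold change of 0.12 ± 0.04 (SE, edgeR adjusted p of 0.0090), and its call was lost in 5 of 14 alternatives, among them the one without WT replicate 1 (adjusted p of 0.27). Slc9c1 was 5.93 and 5.25 times as abundant as Kcnu1 per length in KK, against 8.01 and 9.13 times in WT. Nearly all of its transcripts, 99.9% and 99.6% in KK and 99.4% and 99.7% in WT, were assigned to the single coding isoform Slc9c1-201.

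Of the auxiliary subunits, Catsperb and Catsperd were nearly level between the genotypes. Catsperb (chromosome 12, 101404653 to 101626009, plus strand) had 87.2 and 88.5 TPM in KK and 90.1 and 92.0 TPM in WT. Its log2 fold change of -0.04 had a 95% interval of -0.12 to 0.03 (edgeR adjusted p of 0.36). Catsperd (chromosome 17, 56628143 to 56664456, plus strand) had 136 and 134 TPM in KK and 142 and 144 TPM in WT. Its log2 fold change of -0.08 had a 95% interval of -0.16 to -0.0012, not adjusted for the number of genes (edgeR adjusted p of 0.094). The intervals reach down to 0.919 and 0.896 times the WT level for Catsperb and Catsperd, and a p above the threshold does not show that the levels were equal. The 2 main coding isoforms of Catsperd overlapped between genotypes, with Catsperd-201 at 54.4% and 57.4% of the gene's transcripts in KK and 57.8% and 53.8% in WT.

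Catsperg1 and Catsperg2 are 2 copies of the gamma subunit gene on chromosome 7, at 29181321 to 29214035 and 29697219 to 29727032, both on the minus strand. Catsperg1 had 55.8 and 57.7 TPM in KK, against 76.8 and 84.0 TPM in WT, and Catsperg2 had 106 and 112 TPM in KK, against 102 and 102 TPM in WT. Both genes separated the genotypes, in opposite directions. The log2 fold change was -0.44 ± 0.04 for Catsperg1 (SE, edgeR adjusted p of 1.6e-09) and 0.10 ± 0.04 for Catsperg2 (SE, edgeR adjusted p of 0.035), whose call was lost in 8 of 13 alternatives. Catsperg1 made up 34.5% and 34.0% of the TPM of the pair in KK and 43.0% and 45.2% in WT.

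The split between the copies rests on only part of their sequence. Their coding sequences are 96.4% identical over 3435 aligned bases and share an unbroken run of 341 bases. Of all 50-base windows of the Catsperg1 coding sequence, 42.2% occur unchanged in that of Catsperg2, and 42.5% the other way round. The most different 90 aligned coding bases are printed to show what can tell the copies apart, with the 18 differing bases in capitals. They are exon 15 of Catsperg1-212 (chr7:29195422-29195511) and exon 15 of Catsperg2-201 (chr7:29710018-29710107), GRCm38, minus strand.
Catsperg1: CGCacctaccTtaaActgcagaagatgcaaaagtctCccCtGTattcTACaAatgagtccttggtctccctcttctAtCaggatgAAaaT
Catsperg2: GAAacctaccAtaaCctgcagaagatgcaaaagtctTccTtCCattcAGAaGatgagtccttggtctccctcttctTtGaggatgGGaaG
With the counts of both copies summed before the fit, an alternative chosen after seeing the data, the pair had a log2 fold change of -0.09 ± 0.04 (SE, edgeR adjusted p of 0.048). The summed counts were 8723 and 8390 in KK and 8233 and 8965 in WT, and the summed TPM were 162 and 170 in KK and 179 and 186 in WT. The fall of Catsperg1 alone is thus reported as uncertain in size.

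Within Catsperg1 the reads were spread over 14 annotated isoforms, and those with retained introns held 28.9% and 28.2% of its TPM in KK and 27.7% and 25.1% in WT. Coding isoforms held 56.4% and 56.4% in KK and 54.0% and 56.0% in WT. Both coding forms with the highest levels were lower in KK, Catsperg1-212 at 23.3 and 23.3 TPM in KK, against 28.5 and 28.0 TPM in WT, and Catsperg1-201 at 7.86 and 8.91 TPM in KK, against 12.55 and 18.2 TPM in WT. Catsperg2 was simpler, with the coding isoform Catsperg2-201 at 91.4% and 90.4% of its TPM in KK and 88.9% and 86.8% in WT. Isoform values are given as a description and were not tested.

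**Figure D3:**
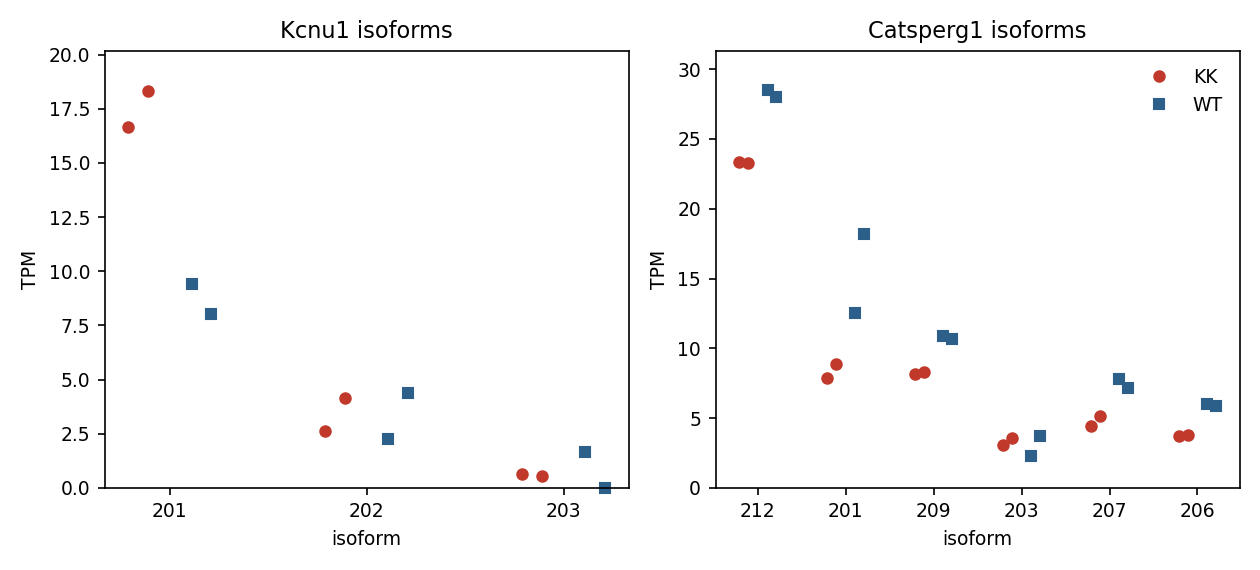
TPM of the main annotated isoforms of Kcnu1 (left) and Catsperg1 (right) in each KK (circles) and WT (squares) library, with isoforms named by their number. Kcnu1-201 is higher in both KK libraries and Catsperg1-212, 201, 209, 207 and 206 are lower in both, while Kcnu1-202, Kcnu1-203 and Catsperg1-203 overlap between genotypes.

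The order of the 10 levels was the same in both genotypes: Catsper2, Catsperd, Slc9c1, Catsperg2, Catsperb, Catsperg1, Catsper4, Catsper3, Catsper1 and Kcnu1 by mean TPM. No neighbours in that order overlapped over the 2 libraries of a genotype, but some gaps were small: in WT Catsper3 and Catsper1 were 0.87 TPM apart at the nearest. The step from Catsperg1 to Catsper4, which divides the 6 abundant genes from the 4 low ones, was 1.15-fold in KK and 2.98-fold in WT. The 4 genes below that step are the 4 that rose by at least 1.5-fold. Summed over the 4 auxiliary genes the level was 385 and 393 TPM in KK and 411 and 422 TPM in WT.

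Of 8 other genes of the CatSper complex 3 rose, 2 fell and 3 did not pass, with a median log2 fold change of 0.04. Over all genes tested 22.0% rose and 21.7% fell, the shares to set beside this list and those that follow. Efcab9, an EF-hand calcium sensor of the channel, had 138 and 129 TPM in KK, against 68.1 and 80.7 TPM in WT (log2 fold change 0.85 ± 0.09 SE, edgeR adjusted p of 1.3e-08). Its partner Catsperz, the CatSper gene with the highest level here, had 1339 and 1286 TPM in KK and 1303 and 1285 TPM in WT (edgeR adjusted p of 0.74). The 2 proteins bind each other, and their transcripts were unequal: Efcab9 stood at 10.3% and 10.04% of the Catsperz TPM in KK, against 5.23% and 6.28% in WT. Catsperz shares 587 exon bases with Kcnk4 on the same strand, which had 22.9 to 38.0 expected counts.

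**Figure D4:**
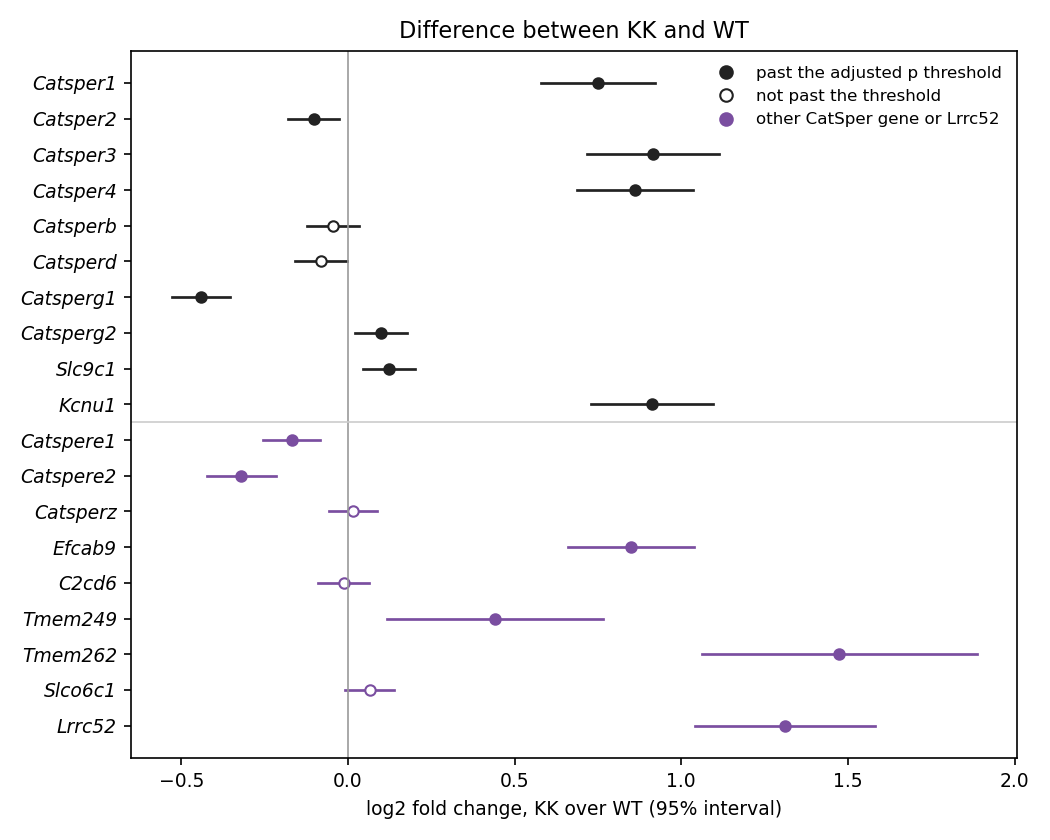
log2 fold change of KK over WT with its 95% interval (bars) from edgeR for the 10 genes (black, above the line) and for the other CatSper genes and Lrrc52 (purple). Catsper1, Catsper3, Catsper4, Kcnu1, Efcab9, Tmem262 and Lrrc52 lie at 0.75 or above, and most others near 0.

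Tmem262 and Tmem249, which encode small membrane proteins found in the channel complex, also rose. Tmem262 had 50.2 and 46.6 TPM in KK, against 13.8 and 20.9 TPM in WT (log2 fold change 1.47 ± 0.20 SE, edgeR adjusted p of 7.0e-07), and shares 27 exon bases with Zfpl1 on the other strand. Tmem249 had 18.4 and 15.9 TPM in KK, against 12 and 13.5 TPM in WT (edgeR adjusted p of 0.025), a call lost in 6 of 14 alternatives, among them those without KK replicate 1 and without WT replicate 1. Catspere1 and Catspere2, paralogues for the epsilon subunit, fell by 11.02% and 19.9% (edgeR adjusted p of 0.0015 and 6.2e-06), and how far reads can be told apart between them was not measured. The call of Catspere1 was lost in 3 of 14 alternatives. C2cd6 (199 against 208 TPM as KK and WT means) and Slco6c1 (182 against 173 TPM) did not pass.

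Of 13 genes for pH, bicarbonate, potassium and cAMP, 9 could be tested: 3 rose and 3 fell, with a median log2 fold change of -0.09. Besides Lrrc52, the risers were Slc26a6, an anion exchanger gene, and Adcy10, the soluble adenylyl cyclase that answers to bicarbonate. Slc26a6 was low, at 4.84 and 4.93 TPM in KK against 1.16 and 0.95 TPM in WT, and its call (edgeR adjusted p of 0.0073) was lost with DESeq2 (0.081) and without WT replicate 2 (0.11). It had 40 and 35 expected counts in KK and 17 and 9 in WT, a 2.70-fold difference in the fit, whereas its mean TPM differed 4.63-fold. Adcy10 was 1.07-fold higher (edgeR adjusted p of 0.042), a call lost in 9 of 14 alternatives, including each one that left out a library. Prkaca, which encodes the catalytic subunit of protein kinase A, fell by 16.6%, the carbonic anhydrase gene Car2 fell by 24.2% and the chloride channel gene Cftr fell by 31.1% (edgeR adjusted p of 8.8e-06, 1.6e-06 and 9.0e-04). The call of Cftr was lost with limma at either pseudocount. Slc9b1, another sodium-proton exchanger gene, had 184 and 170 TPM in KK and 176 and 187 TPM in WT, and did not pass. Car4, Slc26a3, Slc9b2 and Hvcn1 did not reach the expression filter.

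A further list of 8 sperm genes held sodium and calcium pump subunits and calcineurin subunits together with Slc22a14, Abhd2 and Plcz1. Of these 4 rose, 1 fell and 3 did not pass, with a median log2 fold change of 0.07. Slc22a14, a solute carrier gene of the sperm tail, had 91.4 and 96.1 TPM in KK, against 41.2 and 40.2 TPM in WT (2.31-fold, edgeR adjusted p of 5.2e-17). Abhd2, whose product in human sperm links progesterone to CatSper, was 1.49-fold higher in KK, and Plcz1, the egg-activating phospholipase, was 20.2% higher (edgeR adjusted p of 2.5e-09 and 7.1e-05). Plcz1 shares 107 exon bases with Capza3 on the other strand, which had 1871 and 1829 expected counts in KK and 1071 and 1117 in WT. Atp2b4, the plasma membrane calcium pump of sperm, had 21.8 and 21.4 TPM in KK, against 31.4 and 33.5 TPM in WT (1.45-fold lower, edgeR adjusted p of 1.4e-11). Both KK libraries lay below both WT libraries.

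Some markers of other cells and stages also differed between the genotypes. Their counts stand beside 22.0% higher and 21.7% lower in KK over all genes tested. Of 12 pachytene markers 1 rose and 8 fell. Of 14 spermatid genes 7 rose and 6 fell. Acrv1, Spaca1 and Sun5, of the acrosome and nuclear envelope, were 1.54-fold, 1.60-fold and 2.09-fold higher in KK. Smcp, Tssk6 and Odf1 were 1.64-fold, 1.67-fold and 1.43-fold lower (edgeR adjusted p from 2.8e-15 to 5.6e-08 for the genes named so far). The other risers were Tssk1, Tssk2, Tnp1 and Izumo1, by 1.10-fold to 1.57-fold, and the other fallers were Prm1, Prm2 and Gapdhs. The summed spermatid level was 4667 to 4730.5 CPM in KK and 5494 to 5558 CPM in WT, while the median log2 fold change of the list was 0.08. Abundant genes weigh most in that sum: Prm2, which encodes a protamine, averaged 873 CPM in KK and 1261 CPM in WT. Of 7 Leydig cell markers 6 rose and 0 fell, with a summed level of 676 to 686 CPM in KK and 212 to 226 CPM in WT. Insl3 held most of those sums, at 564 CPM in KK and 149 CPM in WT on average (3.77-fold). Cyp17a1, the next largest, was 1.45-fold higher. Of 9 tested spermatogonial markers 6 rose and 1 fell, with a list median of 1.06 in log2 fold change and sums of 119 to 129 CPM in KK and 120.3 to 123 CPM in WT. The largest share of those sums was that of Id4, the gene that fell, at 70.1 CPM in KK and 93.4 CPM in WT on average. The list median was the value of Sall4, which did not pass (edgeR adjusted p of 0.059). Among the risers, Zbtb16 and Lin28a were near the floor, with 3 to 7 expected counts in WT. Uchl1, called higher on its counts, had 32 and 33.0 TPM in KK and 17.9 and 66.2 TPM in WT. Sertoli cell (1 up, 3 down of 7 tested), peritubular and endothelial (2 and 0 of 4) and macrophage markers (1 and 0 of 4) summed to 135 to 140.5, 5.99 to 6.32 and 2.79 to 3.65 CPM in KK and to 148 to 148.4, 2.84 to 4.87 and 2.19 to 2.33 CPM in WT. No marker stood at 0 in all 4 libraries. The part of these differences in the changes of the channel genes was not tested.

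Among all genes tested, those with the pattern nearest to Catsperg1, the gene of the 10 with the smallest p, were Rif1, Srsf10 and Ube2k, at distances of 0.06, 0.07 and 0.08 in log2(TPM + 1) over the 4 libraries. Rif1, for example, had 56.8 and 57.8 TPM in KK and 74.4 and 85.7 TPM in WT. They lie on chromosomes 2, 4 and 5.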

How the data were processed

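RNA was measured in 4 libraries, 2 KK and 2 WT. Per the labels' protocols, total RNA of elutriated cells went into NEBNext Ultra RNA libraries, whose kit keeps no strand information. The submitters' processing notes name Bowtie, mm10 and GRCm38. Which quantifier and annotation release were used is not given in the sources used here. The authors deposited expected counts and TPM, which are divided by effective length, per gene and isoform, effective lengths, and isoform percent values, per the file headers. Of 55364 identifiers 55104 matched GENCODE M21.

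Expected counts were rounded and tested with edgeR 4.0.16 in R 4.3.3 (TMM factors, default filter, quasi-likelihood fit on genotype, Benjamini-Hochberg adjustment over 16571 genes at 0.05). CPM are on the TMM scale, and 95% intervals are per gene. The test was also run on simulated counts whose spread was taken from these data, which cannot show whether that spread was estimated too low. Settings varied were scaling, DESeq2 1.42.0, limma 3.58.1 on log2 TPM, filters, length offsets, a replicate block and each library left out. Named pathway genes were up to 3 risers and 3 fallers per list by p, with at least 1 CPM. The genes, lists and rules were chosen with earlier results of these data known; the motifs, and the non-passing and marker genes named with values, were chosen after their values were seen.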

Additional observations from a re-analysis of the deposited data

How the results depend on the processing

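The rises of Catsper1, Catsper3, Catsper4 and Kcnu1 kept their direction in every alternative run. Their log2 fold changes were 0.70 to 0.83, 0.88 to 1.00, 0.75 to 0.97 and 0.69 to 0.99, in that order. The fall of Catsperg1 kept its direction, at -0.52 to -0.36, in every alternative that held it apart from Catsperg2. Those alternatives all reuse the deposited split of reads between the copies, so they do not test that split. With all 4 libraries in, the rises and this fall stayed past the threshold, and the largest adjusted p was 0.015, for Kcnu1 with limma on log2(TPM + 1). The genes called over the whole table numbered 7237, and 4553 with DESeq2, 3826 and 3758 with limma on log2(TPM + 1) and log2(TPM + 0.1) and 4662 with an effective length offset. Of the 10 genes 8 were called, and 5 with limma at either pseudocount or the length offset. The lower ones numbered 2, and 1 under those settings and library size scaling. Leaving out each library in turn, with the lone library left in its group assumed to vary like the others, gave 5925 to 6552 genes over the whole table, and 6 to 8 of the 10, 4 to 6 higher and 1 to 2 lower. The call of Catsper2 was lost without KK replicate 2 (adjusted p of 0.066) and without WT replicate 2 (0.33), and that of Catsperg2 without KK replicate 2 (0.34), WT replicate 1 (0.16) or WT replicate 2 (0.18). Catsperb and Catsperd, not called, turned to 0.039 and 0.0043 with library size scaling, which moved the median of all genes to 0.09. Same-numbered libraries did not deviate together (correlation of -0.06 over 16571 genes); with a replicate block 7309 genes and the same number of the 10, 8, were called.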
